A study of Drosophila melanogaster with 4 samples.

Results

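The glutathione S-transferase (Gst) family was examined in fasted heads of Drosophila melanogaster. A gene was a member when its symbol in the platform annotation begins with Gst and its probe set carries that symbol alone, which gave 34 of 11982 genes on the arrays. There were 11 members of the delta class (GstD), 13 of the epsilon class (GstE), 3 of the omega class (GstO), 1 of the sigma class (GstS), 4 of the theta class (GstT) and 2 of the zeta class (GstZ). GstE9 and GstO2 each had 2 probe sets, and the brighter probe set stood for the gene.

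RNA was labelled as taken from heads of male flies that had fasted for 24 h. The 4 groups, each with 1 array, were a TORC mutant, a wild-type control (WT control) to it, a neuronal rescue by TORC, and a rescue control. TORC, encoded by the gene Crtc, is a coactivator for the transcription factor CREB. Every group was fasted, so the arrays hold no fed state. The labels do not give strain, age, the TORC allele, the genotype behind the rescue control, the neuronal driver or how many flies were pooled. With 1 array a group there is no replicate error, so every difference below is a size between single arrays and carries no p-value.

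Glutathione S-transferases join the tripeptide glutathione to reactive compounds, which makes these compounds more soluble and easier to export. The delta and epsilon classes are insect-specific and much enlarged, and are known for roles in insecticide resistance and in clearing products of lipid peroxidation. Several members are induced by oxidative stress through the transcription factor encoded by cnc, the fly homologue of Nrf2, which the protein Keap1 holds in check. The omega, theta and zeta classes are found in vertebrates too, and zeta enzymes serve in tyrosine breakdown.

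Values are MAS5 signals, an intensity per probe set on a linear scale. Where 4 signals of a gene are listed, they run from the WT control through the mutant and the rescue control to the neuronal rescue. Signals under 14 were raised to that floor before ratios were taken, and where that happened on the dimmer array the fold is a bound, given as at least so many fold. A gene was called at a difference of 2-fold or more between arrays, which is a log2 ratio of at least 1 upwards or downwards. The brightness of a probe set depends on its probes, so signals of different genes do not rank their transcripts. The only spread that the files hold is that between probe sets of the same gene: its robust SD was 0.35 in log2 units over 479 genes for the mutant against the WT control, and 0.35 over 418 genes for the neuronal rescue relative to the rescue control. It leaves out variation between flies and between RNA preparations.

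Crtc had signals of 203 with WT RNA, 3.8 with mutant RNA, 6.7 with rescue control RNA and 37.4 with neuronal rescue RNA, so it lay below the floor in the rescue control as well as in the mutant. Markers of tissues outside the head also separated the arrays. Summed signals of 10 testis markers were 5818, 59.9, 101 and 11102 on the WT, mutant, rescue control and neuronal rescue arrays. Those of 11 male accessory gland and ejaculatory tract markers were 13217, 50.9, 76.1 and 14072. Each main comparison therefore set an array with high sums of these markers against an array with low sums. The 7 photoreceptor, 10 neuronal and 8 glial markers were above the floor on all 4 arrays, and their summed signals differed between arrays by no more than 1.14-fold. Bright genes carry these sums: the median log2 ratio of the neuronal markers was -0.04 in the mutant against the WT control. In the neuronal rescue it was -0.39 relative to the rescue control and -0.74 relative to the WT control, with 3 of 10 called lower in the latter pairing. The yolk protein gene Yp1, known for its expression in female fat body, had 3235, 4617, 17.6 and 4524, so it was bright on 3 arrays labelled as male. Control transcripts from Bacillus had geometric mean signals of 77.3 and 76.8 in the WT control and the mutant, and of 351 and 261 in the rescue control and the neuronal rescue, so the main comparisons lie within pairs of arrays alike in this respect and the other pairings cross them.

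Most of the family was measured in all groups. Of the 34 members, 27 were above the floor on all 4 arrays (79.4%, beside 62.4% of all genes), 4 on some arrays and 3 on none. GstD4, GstD6 and GstD7 were the members below the floor throughout, with signals of at most 9.7, 5.9 and 2.0. The values nearest to the floor were 14.5 for GstD5 in the mutant and 15.7 for GstE4 in the rescue control on the upper side, and 11.4 for GstD8 in the mutant on the lower side. Over the 27 members the brightest array exceeded the dimmest by a median of 1.40-fold, and by 1.45-fold over the 7478 genes above the floor on all arrays. The span was at least 2-fold for 7 of the 27 members (25.9%), beside 14.7% of those 7478 genes.

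**Figure D1:**
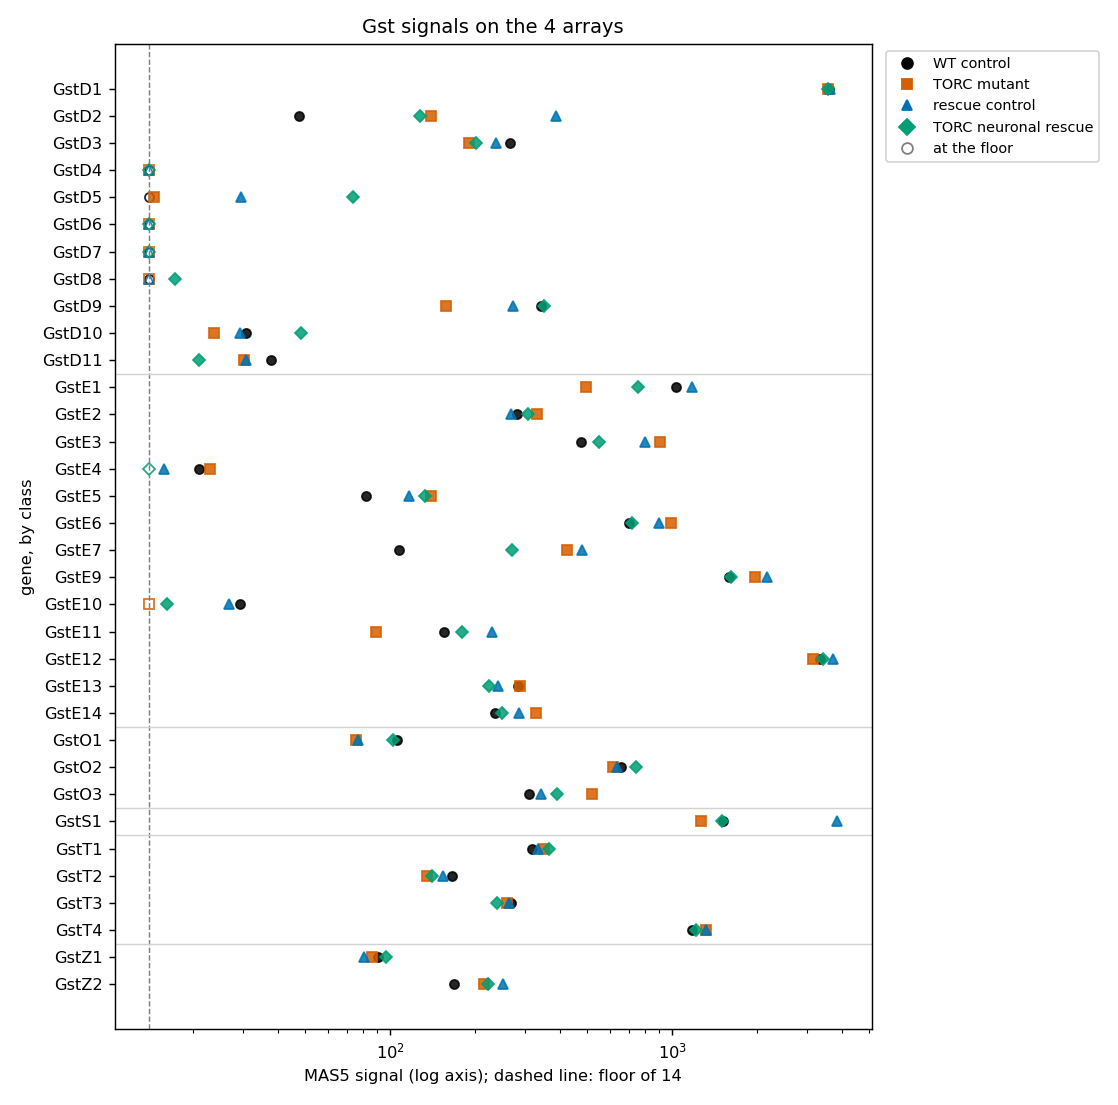
MAS5 signal (log axis) of each of the 34 Gst members on the 4 arrays, ordered by class, with open symbols for signals raised to the floor of 14 (dashed line). GstD1, GstE12 and the theta members show nearly overlapping points, whereas GstD2, GstD5, GstE7 and GstS1 are spread 3.03-fold to 8.16-fold, of which the 5.25-fold of GstD5 is a bound.

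The delta genes lie next to each other in the Release 6 assembly, in the order GstD10, GstD9, GstD1, GstD2, GstD3, GstD4, GstD5, GstD6, GstD7, GstD8, with GstD11 beyond 1 further protein-coding gene. GstD1, the delta enzyme whose promoter is widely used as a reporter of oxidative stress, was the flattest member of the family. It had signals of 3587 with WT RNA, 3569.5 with mutant RNA, 3636 with rescue control RNA and 3578 with neuronal rescue RNA, a span of 1.02-fold. Its neighbour GstD2 had the widest span, 8.16-fold, of the members above the floor on all arrays.

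GstD2 had a signal of 47.3 with WT RNA, 139 with mutant RNA, 386 with rescue control RNA and 127 with neuronal rescue RNA. The mutant was thus 2.94-fold above the WT control, and the neuronal rescue was 3.03-fold below the rescue control. The mutant and the neuronal rescue were within 1.09-fold of each other, and the controls lay on either side of them, 8.16-fold apart. Both main comparisons of GstD2 therefore rest on controls that differ more from each other than either differs from its test array.

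GstD5, beyond GstD3 and GstD4, had a different order: 0.8 with WT RNA, 14.5 with mutant RNA, 29.6 with rescue control RNA and 73.5 with neuronal rescue RNA. The neuronal rescue was 2.48-fold above the rescue control and at least 5.25-fold above the WT control, while the mutant was barely above the floor. GstD9 had signals of 341, 157, 272 and 352 on the WT, mutant, rescue control and neuronal rescue arrays. It was 2.17-fold lower in the mutant than on the WT array, and the mutant was the low array. GstD10 had 30.8, 23.7, 29.4 and 48.3, 1.64-fold higher in the neuronal rescue than on the rescue control array.

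The remaining delta members differed less. GstD3, a delta protein that lacks part of the usual N-terminal domain, had signals of 266, 190.4, 236 and 202 on the WT, mutant, rescue control and neuronal rescue arrays. GstD11 had 37.7, 30.2, 30.9 and 20.9, lowest in the neuronal rescue. GstD8 was above the floor only in the neuronal rescue, at 17.2, at least 1.23-fold over each other array. Probe sequences were not used here, so hybridisation between neighbouring, similar delta or epsilon genes was not tested.

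Among the epsilon genes, GstE10, GstE1, GstE2, GstE3, GstE4, GstE5, GstE6, GstE7, GstE8 and GstE9 follow each other in the assembly in that order, and GstE8 was not analysed here. GstE7 had the highest ratio of the family in the mutant. Its signal was 108 with WT RNA, 424 with mutant RNA, 477 with rescue control RNA and 269.9 with neuronal rescue RNA. The mutant exceeded the WT control 3.94-fold, and the neuronal rescue was 1.77-fold below the rescue control. The WT control was the low array, 2.50-fold below the next.

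Around GstE7, all 7 measured genes from GstE2 to GstE9, GstE7 included, had a log2 ratio above 0 for the mutant against the WT control, and GstE7 alone was called. Their median was 0.50, beside a median of 0.07 for the 7478 genes above the floor on all arrays. The ratios of GstE2, GstE4 and GstE9, at 0.24, 0.13 and 0.31, were within the SD of 0.35 between probe sets. This run was singled out after its values were seen, so its shared sign is a description. All 7 ratios were also above 0 with quantile normalization. Median centring and centring on head markers shifted these ratios upwards alike, so neither setting could turn any of them below 0. GstE3 had signals of 475, 901, 800 and 551 on the WT, mutant, rescue control and neuronal rescue arrays, 1.90-fold higher in the mutant and so just short of 2-fold. GstE5 had 82.3, 139.5, 117 and 132. GstE6 had 701, 989, 898 and 719.

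GstE9 had signals of 1589.7, 1969.6, 2159.9 and 1617 in the same order of arrays, and its other probe set was below the floor throughout, at 7.7 to 10.8. In GstE3, GstE5, GstE6, GstE7 and GstE9 the WT control was the lowest array. GstE2, with 282, 332, 268 and 307, and GstE4, with 20.9, 22.9, 15.7 and 5.9, had other lowest arrays. For the neuronal rescue relative to the rescue control, 5 of these 7 genes were below 0, with a median log2 ratio of -0.32, and median centring turned all 7 below 0.

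The other end of the run went the opposite way in the mutant. GstE1, an epsilon enzyme, had a signal of 1028 with WT RNA, 493 with mutant RNA, 1174 with rescue control RNA and 757 with neuronal rescue RNA. It was 2.09-fold lower in the mutant than on the WT array and 2.38-fold lower than in the rescue control. GstE10, next to it, had 29.2, 5.6, 26.9 and 16.2 on the same arrays, and its mutant signal was at least 2.09-fold below that of the WT control. Both calls depended on the processing. For GstE1 the log2 ratio was -0.98 after centring on head markers and -0.17 after median centring. For GstE10 it was -0.89 and -0.64 under the same settings, -0.65 with quantile normalization, and -0.06 and 0 with the floor raised to 28 and 50.

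The epsilon members outside the run were GstE11, GstE12, GstE13 and GstE14. GstE11 had 155, 89.0, 230.1 and 179.9 on the WT, mutant, rescue control and neuronal rescue arrays, lowest in the mutant like GstE1 and GstE10. It was 1.74-fold below the WT control there and 2.59-fold below the rescue control. GstE12 had 3341, 3152, 3728 and 3416, a span of 1.18-fold. GstE14, known as noppera-bo and needed for ecdysteroid synthesis, had 235, 329, 287 and 249, and GstE13 had 283, 289, 240.3 and 224.

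**Figure D2:**
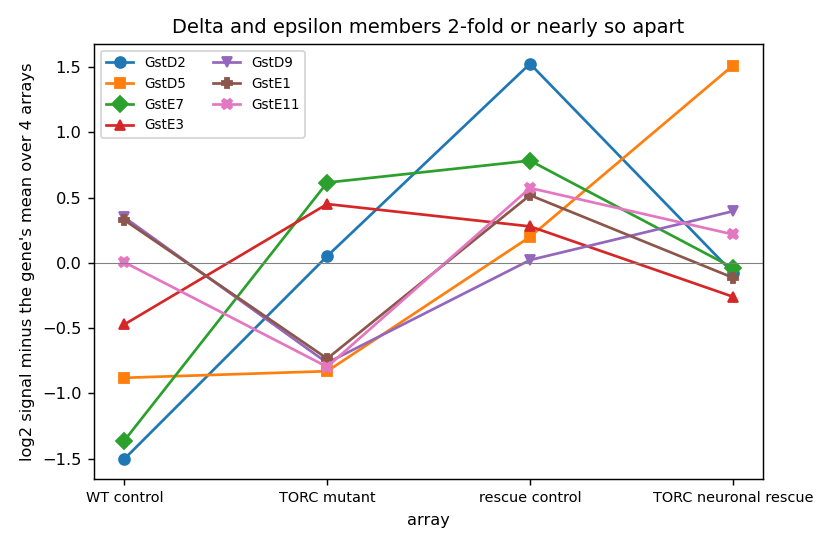
Log2 signal of 7 delta and epsilon members on each array, minus the gene's own mean over the 4 arrays. GstD2 and GstE7 are lowest in the WT control and highest in the rescue control, GstD9, GstE1 and GstE11 are lowest in the mutant, and GstD5 is highest in the neuronal rescue; lines join arrays of the same gene and imply no order.

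Tissue markers moved beside these genes. Of 9 midgut markers, the number above the floor was 9 with WT RNA, 2 with mutant RNA, 8 with rescue control RNA and 7 with neuronal rescue RNA, with summed signals of 7516, 98.0, 2096 and 5017. The mutant, lowest for GstD9, GstE1, GstE10 and GstE11, was thus also the array with the least midgut marker signal, with alphaTry, betaTry and the Jonah protease markers below the floor. The brightest arrays did not all match. The midgut sum and GstE10 were highest in the WT control, GstE1 and GstE11 in the rescue control, and GstD9 in the neuronal rescue. The 8 head fat body markers were all above the floor on each array, with summed signals of 15958 with WT RNA, 31050 with mutant RNA, 21053 with rescue control RNA and 24152 with neuronal rescue RNA. Among them the storage protein gene Lsp2 had 1139, 8765, 8793 and 5512, low in the WT control as GstE7 was, whereas Yp1 and Yp2 were near the floor in the rescue control alone, at 17.6 and 14.8. Of 6 oenocyte markers, the number above the floor was 5, 2, 2 and 4, with summed signals of 8152, 4156, 3701 and 8984. Among them Cyp4g1, a cytochrome P450 gene of hydrocarbon synthesis, had 3796, 50.7, 412 and 4985, lowest in the mutant, and FASN2 and FASN3 were below the floor in the mutant and the rescue control. Desat1 varied less, with 4169, 4088.5, 3255 and 3574, and made up most of the oenocyte sums in the mutant and the rescue control. Fad2 was below the floor throughout, and eloF was above it with WT RNA alone, at 15.2. The testis and accessory gland sums given above were also lowest in the mutant. The Malpighian tubule list summed to between 961 and 1148, and Picot, with 727, 806, 668 and 552, made up most of each sum. NaPi-T and CG17751 were above the floor in the neuronal rescue alone, at 22.7 and 14.6, and CG3014 on no array. Uro was listed but not matched, so these sums say little of tubule RNA. The part of these tissues in the Gst differences was not tested.

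GstS1, the sigma enzyme that is abundant in flight muscle and conjugates the lipid peroxidation product 4-hydroxynonenal, was high on a single array. Its signal was 1515 with WT RNA, 1266 with mutant RNA, 3841 with rescue control RNA and 1496 with neuronal rescue RNA. The neuronal rescue was 2.57-fold below the rescue control, whereas the mutant was 1.20-fold below the WT control, within the spread between probe sets. The probe set of GstS1 is of the type that can match more than 1 transcript.

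Genes listed as flight muscle markers divided in the rescue control: 3 of 6 were brightest there and 3 in the WT control. Whether each of them is particular to flight muscle was not tested. Of the 6 markers, 6, 5, 6 and 6 were above the floor on the WT, mutant, rescue control and neuronal rescue arrays, with summed signals of 15366, 4652, 20028 and 5608. The thick filament gene fln had 2156, 14.2, 5251 and 359, and the flight muscle actin gene Act88F had 3116, 87.4, 6807 and 627. The troponin C gene TpnC4 had 1053, 4.8, 1662 and 569. These 3 genes were 1.58-fold to 2.43-fold brighter in the rescue control than in the WT control, beside 2.54-fold for GstS1. The troponin C gene TpnC41C, the myosin light chain gene Mlc2 and the troponin T gene up went the other way, and were 1.64-fold, 1.37-fold and 1.35-fold lower in the rescue control than in the WT control. The median log2 ratio of the 6 markers in that pairing was 0.11. In the mutant Act88F was 35.7-fold, TpnC4 at least 75.2-fold and fln 152-fold below the WT control. TpnC41C had a log2 ratio of -2.32 there, Mlc2 was 2.12-fold and up 1.18-fold lower, and GstS1 was 1.20-fold lower. The part of muscle in the GstS1 difference was not tested.

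**Figure D3:**
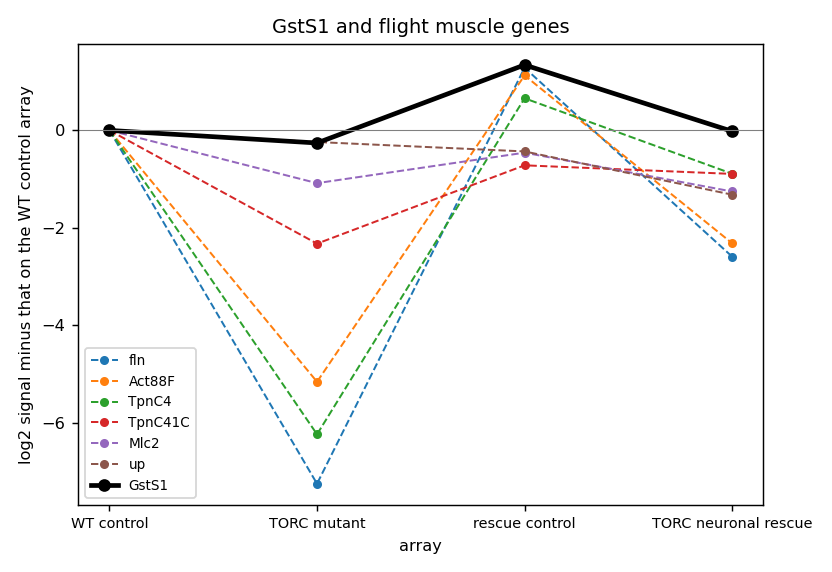
Log2 signal of GstS1 (thick line) and of 6 genes listed as flight muscle markers, after raising signals to 14. Each is drawn minus its own value on the WT control array. GstS1, fln, Act88F and TpnC4 peak in the rescue control, whereas TpnC41C, Mlc2 and up peak in the WT control. In the mutant fln, Act88F and TpnC4 drop far below the WT control, TpnC41C and Mlc2 less so, and up and GstS1 lie 1.18-fold and 1.20-fold below it; lines join arrays of the same gene and imply no order.

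No omega, theta or zeta member was called in any of the 6 pairings of the arrays, beside 2.65% to 16.8% of all genes called in each. The theta genes GstT1, GstT2, GstT3 and GstT4 all stayed within 1.3-fold over the 4 arrays, as did 28.4% of the genes above the floor on all arrays. GstT4 had signals of 1174, 1312, 1317 and 1217 on the WT, mutant, rescue control and neuronal rescue arrays, and GstT1 had 318, 351, 333 and 366. GstT3 had 267, 258, 264 and 239.5, and GstT2 had 166, 135, 154 and 141.

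GstO3 varied most among the omega genes, which include thiol transferases. It had signals of 309 with WT RNA, 517 with mutant RNA, 342 with rescue control RNA and 389.9 with neuronal rescue RNA, 1.67-fold higher in the mutant than on the WT array. GstO2 had 657, 617, 635 and 747, and its dimmer probe set had 139, 109, 119.5 and 116. Log2 ratios of the 2 probe sets for the mutant against the WT control were -0.09 and -0.36. GstO1 had 106, 75.4, 77.0 and 102.5, low in the mutant and the rescue control. Of the zeta genes, GstZ2 had 168, 216, 251 and 222, lowest in the WT control, and GstZ1 had 90.5, 86.1, 80.9 and 96.5.

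The comparison of mutant with WT control asks how Gst transcripts differ where TORC is lost. GstD2 and GstE7 were called higher in the mutant, and GstD9, GstE1 and GstE10 were called lower. These 5 are 14.7% of the 34 members, beside 13.3% of all 11982 genes. The share called was near that of all genes. Lower calls over all genes included all 10 testis, 11 accessory gland and 9 midgut markers. The 2 higher members are 5.88% of the family, beside 1.74% of all genes, and the 3 lower members are 8.82%, beside 11.5% of all genes. Such counts are small, and the division between higher and lower calls was not tested. Of the calls over all genes, 13.1% were higher, and this share was 35.7% with quantile normalization, 17.6% after centring on head markers and 78.8% after median centring. The median log2 ratio of all members was 0.00, as it was over all genes, beside 0.07 over genes above the floor on all arrays. By class the medians were 0.00 for delta, 0.24 for epsilon, -0.09 for omega, 0.05 for theta and 0.14 for zeta. The delta median was held at 0 by the floor: of 11 delta members 4 were at the floor on both arrays, 2 were above 0 and 5 below. Of the 30 members with a signal above the floor on either array, 15 lay within 1 SD between probe sets of no difference (50%, beside 51.7% of all such genes). Quantile normalization gave 3 higher and 2 lower, centring on head markers 3 and 1, and median centring 13 and 0.

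The comparison of neuronal rescue with rescue control asks how Gst transcripts differ where TORC is returned to neurons. GstD5 was at least 2-fold higher in the neuronal rescue, and GstD2 and GstS1 at least 2-fold lower. These 3 are 8.82% of the members, beside 14.3% of all genes. The 1 higher member is 2.94% of the family, beside 12.8% of all genes, and the 2 lower members are 5.88%, beside 1.51% of all genes. Of the calls over all genes 89.4% were higher, and 59.8% with quantile normalization, 95.6% after centring on head markers and 23.3% after median centring. The median log2 ratio of all members was -0.12, beside 0.00 over all genes and -0.14 over genes above the floor on all arrays. After centring on head markers these medians were 0.11 for the family and 0.13 for genes above the floor on all arrays, so the sign of the family median depends on the scaling. Of the 13 epsilon members 11 were below 0 and none was called, with a median of -0.32, and after centring on head markers 8 were below 0, with a median of -0.09. Of the delta members 4 were above and 4 below 0, and this became 6 and 2 after centring on head markers and 1 and 7 after median centring. Quantile normalization gave 0 higher and 4 lower, and median centring 0 and 13.

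**Figure D4:**
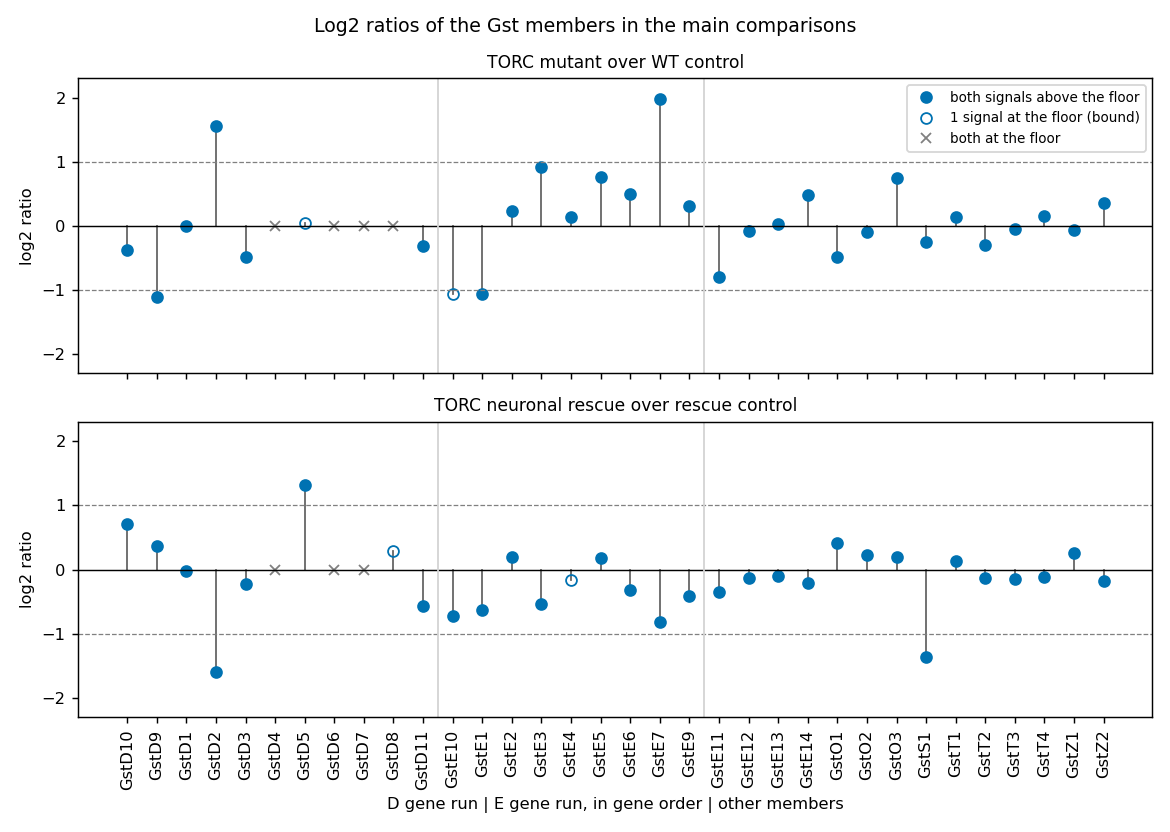
Log2 ratio of each Gst member in the main comparisons, with the delta and epsilon runs in gene order and the other members after them; dashed lines mark 2-fold. In the mutant against the WT control the genes from GstE2 to GstE9 are all above 0 while GstE10 and GstE1 are near -1, and in the neuronal rescue relative to the rescue control GstD2 and GstS1 lie below -1 and GstD5 above 1.

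The main comparisons share no array and can be set side by side. Of the 27 members above the floor on all 4 arrays, 14 had opposite signs in the main comparisons (51.9%), beside 63.5% of the 7478 genes above the floor on all arrays. There were 9 members above 0 in the mutant and below 0 in the neuronal rescue, among them GstD2, GstE3, GstE6, GstE7 and GstE9. Another 5 were below 0 in the mutant and above 0 in the neuronal rescue, among them GstD9 and GstD10. GstD2 was the only member called in both. Across the 27 members the log2 ratios had a Pearson correlation of -0.38, beside -0.43 across those 7478 genes. Genes are not independent replicates, and these correlations are descriptions.

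The other 4 pairings share arrays with the main comparisons and are given as values. In the rescue control against the WT control, GstD2, GstD5, GstE7 and GstS1 were higher and no member was lower. All 4 together are 11.8% of the members, beside 13.4% of all genes called, 2.31% of all genes higher and 11.1% lower. GstE7 was 4.42-fold higher there and GstS1 2.54-fold. In the mutant against the rescue control, the pair of arrays with the fewest calls (2.65% of all genes), no member was higher, beside 0.81% of all genes, and GstD2, GstD5, GstE1, GstE11 and GstS1 were lower. These 5 are 14.7% of the members, beside 1.84% of all genes lower. Their folds were 2.78, 2.04, 2.38, 2.59 and 3.03 in that order, and this pair crosses the difference in the Bacillus control transcripts.

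In the neuronal rescue against the mutant, GstD5, GstD9, GstD10 and GstE11 were higher and no member was lower, beside 16.8% of all genes called, 13.8% higher and 2.98% lower. GstD5 was 5.07-fold higher there, and the other 3 between 2.02-fold and 2.24-fold. In the neuronal rescue against the WT control, GstD2, GstD5 and GstE7 were higher, at 2.69-fold, at least 5.25-fold and 2.50-fold, and no member was lower, beside 8.05% of all genes called, 5.27% higher and 2.77% lower. GstD1, GstD3, GstE2, GstE12 and GstE13 were among the members called in none of the 6 pairings at the deposited scaling.

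**Figure D5:**
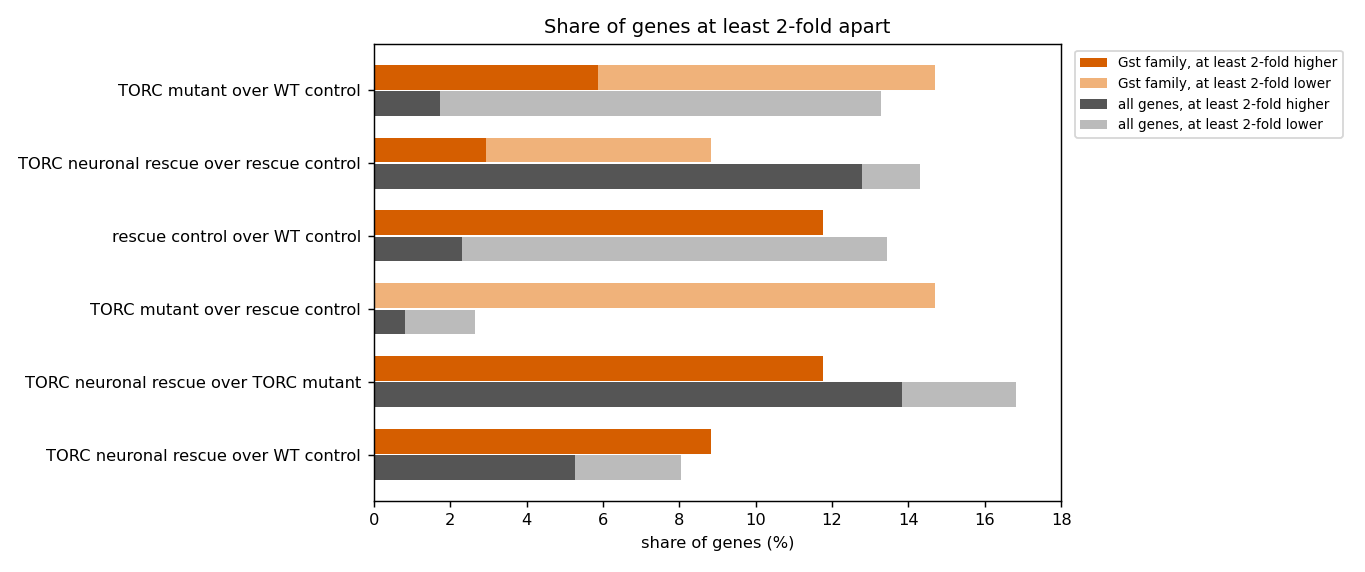
Share (%) of the 34 Gst members and of all 11982 genes that were at least 2-fold higher (dark) or lower (light) in each of the 6 pairings of the arrays. Gst shares lie between 8.82% and 14.7% in every pairing, whereas the shares of all genes run from 2.65% for the mutant against the rescue control to 16.8% for the neuronal rescue against the mutant.

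The array with the lowest signal was counted for each member. Of the 27 members above the floor throughout, the WT control was lowest for 11 (40.7%, beside 26.3% of the genes above the floor on all arrays) and the mutant for 11 (40.7%, beside 20.6%). The neuronal rescue was lowest for 3 (11.1%, beside 37.5%) and the rescue control for 2 (7.41%, beside 15.6%). The rescue control was the highest array for 10 members (37.0%, beside 28.1%). These shares compare signals without a size threshold. They also depend on the scaling of the arrays and were not recounted under the alternatives. For the mutant against the WT control, median centring moved the log2 ratio of GstE11 from -0.80 to 0.09. It moved that of GstD9 from -1.12 to -0.23.

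Regulators of the family were measured on the same arrays. The Nrf2 homologue cnc had a signal of 702 with WT RNA, 145 with mutant RNA, 268 with rescue control RNA and 310.4 with neuronal rescue RNA, 4.84-fold lower in the mutant. Its repressor Keap1 had 42.7, 62.4, 68.5 and 47.8, and maf-S, the small Maf partner of cnc, had 935, 742, 1030.4 and 1015.5.

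Genes that make, recycle or use glutathione were called about as often as all genes in the mutant. Of 16 genes for glutathione supply and conjugate export, none was called higher in the mutant than on the WT array, beside 1.74% of all genes, and 2 were lower (12.5%, beside 11.5%). Their median log2 ratio was -0.14, beside 0.00 over all genes and 0.07 over genes above the floor on all arrays. Gclc and Gclm, the subunits of the enzyme that limits glutathione synthesis, had 513, 456, 456 and 484, and 62.1, 54.2, 75.7 and 88.8. Gss1 and Gss2 were also listed but were not matched to a gene analysed here. The glutaredoxin gene Grx1t had 43.7, 0.4, 0.9 and 79.4, and the thioredoxin reductase gene Trxr2 had 30.1, 10.9, 1.0 and 56.5. Both were called lower in the mutant, by bounds, and both were bright on the arrays with high testis marker signals. In the neuronal rescue relative to the rescue control 3 were higher (18.8%, beside 12.8% of all genes). These were Grx1t, Trxr2 and the conjugate transporter gene Mrp4, each by a bound, since the rescue control was below the floor. Signals of Mrp4 were 24.5, 14, 12.1 and 33. None of the 16 was lower, beside 1.51% of all genes. The median there was -0.10, beside 0.00 over all genes and -0.14 over genes above the floor on all arrays. The part of testis RNA in these differences was not tested.

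Of the NADPH supply list only Men and Idh were analysed, whose enzymes make NADPH that keeps glutathione reduced. Zw and Pgd were also listed but were not matched to a gene analysed here, so these values cover a part of NADPH supply. The malic enzyme gene Men had 2179, 5214, 4159 and 3225, 2.39-fold higher in the mutant than on the WT array, and Idh had 3261, 5520.3, 5106 and 4891, 1.69-fold higher. Of the 6 related genes whose symbols do not begin with Gst, none was called in either main comparison, beside 13.3% and 14.3% of all genes. The nuclear protein gene gfzf, which carries a Gst domain, had 261, 459.5, 379 and 205. The omega enzyme gene se, named for the sepia eye colour and needed for red eye pigment, had 1390, 1311, 812 and 457, 1.78-fold lower in the neuronal rescue than on the rescue control array. The microsomal transferase-like gene Mgstl had 1597.5, 2266, 2825 and 2725.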

How the data were processed

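The deposited table held MAS5 signals, an intensity per probe set on a linear scale, for 4 arrays; MAS5 is named in the submitters' processing notes, and its version, detection calls and scanner data are not given in the sources used here. The 2% trimmed mean of every array was 150, so the authors' values had been scaled before deposit, and they were used without further scaling. Of 18952 probe sets, 183 were controls and 13647 carried 1 gene symbol in the platform annotation; the probe set with the highest mean signal stood for each gene. Entrez identifiers tied all 34 Gst members to RefSeq entries of Release 6; that assembly was used for gene order alone, since the sources used here name no build for the arrays. Signals were raised to 14 and log2 transformed. Spread was the robust SD (scaled median absolute deviation) of ratio differences between genes' probe set pairs, divided by the square root of 2. Ratios and calls were tested on simulated data. Every member could be named; lists and members were chosen with earlier results of these data known. No sequence was printed, because none was in the sources used here. Precision is limited by the number of arrays, 1 a group. Alternatives covered scaling, floor, probe set choice, a filter on low values and the fold threshold. Python 3.11.15, numpy 2.4.6, pandas 2.3.3, scipy 1.17.1 and matplotlib 3.10.9 were used.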

Additional observations from a re-analysis of the deposited data

How the results depend on the processing

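Counts of called Gst members and medians were recomputed under the alternatives. No called member changed sign. Median centring moved the median log2 ratio over the 7478 genes measured throughout from 0.07 to 0.95 for the mutant against the WT control and from -0.14 to -0.99 for the neuronal rescue relative to the rescue control. It moved the Gst medians to 0.81 and -0.96, the mutant counts to 13 higher and 0 lower, and the neuronal rescue counts to 0 higher and 13 lower; measured against those shifted medians GstD2 was at 1.49 and GstE7 at 1.91 in the mutant, nearly as without centring, since centring shifts all genes of an array alike. Quantile normalization gave 0 higher and 4 lower in the neuronal rescue. Centring on head markers gave 1 lower in the mutant. With the floor at 50, and also among the 29 members whose mean log2 signal passed the floor, 0 members were higher in the neuronal rescue, since GstD5 dropped out. A threshold of 1.5-fold gave 5 higher in the mutant, and 2 higher and 5 lower in the neuronal rescue. A threshold of 3-fold gave 1 higher and 0 lower in the mutant, and 0 higher and 1 lower in the neuronal rescue. GstD2 in both comparisons, GstE7 in the mutant and GstS1 in the neuronal rescue kept at least 2-fold under all 7 settings of scaling, floor and probe set choice. GstD9 kept it under 6, GstE1 under 5, GstD5 under 4 and GstE10 under 2. Several of these settings could not alter a ratio. Each of these members had 1 probe set, so probe set choice changed none of them. All signals of GstD9, GstE1, GstE7 and GstS1 were above 50, so no floor altered their ratios. For GstD2 only the floor of 50 did, to 1.47 in the mutant. Median centring moved GstD2, GstE7 and GstS1 further from 0. Centring on head markers left GstD2 at -1.34 and GstS1 at -1.10 in the neuronal rescue. No probe set with several symbols named a Gst gene, so that alternative gave no value. No paired analysis was possible because each group had 1 array.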
